A study of Mus musculus with 2 samples.

Results

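The amino acid response genes are 33 genes that the transcription factor ATF4 is known to switch on when amino acids run short, together with Atf4 itself. They were taken by symbol from the gene rows of both matrices, and all 33 of 33 listed symbols were found among 55331 gene symbols. By role they comprise 10 regulators and stress genes, 7 amino acid transporters, 10 enzymes of serine, folate, proline and asparagine synthesis and 6 cytosolic tRNA synthetases. Their levels were read from single-cell RNA-seq of newborn (P0) mouse kidney, in 2 libraries of 1 genotype each. The library labelled Flcn WT was heterozygous (Six2Cre; Flcn flox/+) and the library labelled Flcn KO was homozygous (Six2Cre; Flcn flox/flox), so both carried the Six2Cre transgene and at least 1 floxed allele. Six2Cre acts in nephron progenitors and is inherited by the nephron epithelium they form, while stroma, vessels, immune cells and the ureteric bud lie outside that lineage. How many animals went into each library, and their strain and sex, is not stated, and the tissue label reads embryonic kidney.

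When a cell lacks amino acids, the kinase GCN2 senses uncharged tRNA and phosphorylates the translation factor eIF2alpha. PERK, HRI and PKR act on the same factor after endoplasmic reticulum stress, haem shortage or oxidative stress, and viral RNA. General translation then slows while translation of the Atf4 mRNA increases, so ATF4 activity is set largely by translation and not by the amount of Atf4 mRNA. ATF4 pairs with C/EBP proteins and binds the C/EBP-ATF response element (CARE) of its target genes, which raise amino acid uptake, synthesis and tRNA charging. Active mTORC1, the kinase complex that folliculin (the product of Flcn) regulates at the lysosome, also drives ATF4 synthesis, and proximal tubule cells are known for serine synthesis and amino acid reabsorption.

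Promoters are shown for 5 of the 8 genes found to hold the CARE letters, namely Asns, Trib3, Slc7a11, Gars and Aars. Each runs from 250 bases before to 50 bases after the RefSeq start of the gene (GRCm38.p6), 5′ to 3′ on the strand of the gene. Capitals mark matches to TGATGNAA on either strand.
Asns: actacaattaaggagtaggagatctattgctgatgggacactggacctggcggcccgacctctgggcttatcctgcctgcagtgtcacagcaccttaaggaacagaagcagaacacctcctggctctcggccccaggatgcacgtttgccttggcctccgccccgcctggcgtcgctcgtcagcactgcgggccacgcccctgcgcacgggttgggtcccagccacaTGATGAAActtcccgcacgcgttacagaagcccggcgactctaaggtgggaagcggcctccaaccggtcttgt
Trib3: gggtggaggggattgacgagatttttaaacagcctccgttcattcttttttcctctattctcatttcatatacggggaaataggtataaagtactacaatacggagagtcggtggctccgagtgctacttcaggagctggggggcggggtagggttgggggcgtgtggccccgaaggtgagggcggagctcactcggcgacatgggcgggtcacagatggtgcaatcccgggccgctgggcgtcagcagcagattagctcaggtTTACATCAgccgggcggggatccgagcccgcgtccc
Slc7a11: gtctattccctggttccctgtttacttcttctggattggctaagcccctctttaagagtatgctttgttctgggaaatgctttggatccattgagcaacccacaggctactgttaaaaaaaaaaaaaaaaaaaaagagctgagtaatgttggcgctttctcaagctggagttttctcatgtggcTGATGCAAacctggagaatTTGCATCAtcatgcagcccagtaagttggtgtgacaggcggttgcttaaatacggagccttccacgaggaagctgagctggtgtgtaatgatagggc
Gars: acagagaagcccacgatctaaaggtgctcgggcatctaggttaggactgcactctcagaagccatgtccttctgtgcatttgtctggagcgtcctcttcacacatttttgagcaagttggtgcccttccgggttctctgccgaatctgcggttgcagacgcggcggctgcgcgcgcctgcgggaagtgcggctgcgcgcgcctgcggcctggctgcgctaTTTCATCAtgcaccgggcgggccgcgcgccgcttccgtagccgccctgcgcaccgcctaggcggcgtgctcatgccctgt
Aars: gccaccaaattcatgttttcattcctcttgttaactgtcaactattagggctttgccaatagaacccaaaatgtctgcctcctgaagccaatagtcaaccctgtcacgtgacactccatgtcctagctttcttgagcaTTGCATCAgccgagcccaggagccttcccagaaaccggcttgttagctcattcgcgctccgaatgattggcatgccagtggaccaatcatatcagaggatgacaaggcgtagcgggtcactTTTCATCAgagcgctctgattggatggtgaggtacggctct
The Asns promoter (chr6:7693160-7693459, minus strand) has 1 match, which starts 23 bases before the start site. The Trib3 promoter (chr2:152344011-152344310, minus strand) has 1 match, downstream of the start site. The Slc7a11 promoter (chr3:50443564-50443863, minus strand) has 2 matches on opposite strands, 66 and 47 bases before the start site. The Gars promoter (chr6:55037751-55038050, plus strand) has 1 match, 30 bases before the start site. The Aars promoter (chr8:111033592-111033891, plus strand) has 2 matches, the first 112 bases before the start site.

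Of the 33 genes, 26 had a promoter in the RefSeq table, and 8 of these (30.8%) held TGATGNAA in at least 1 promoter, the others being Chac1, Vldlr and Pycr1. Among all 27025 genes of the table, 1219 (4.51%) did. The E-box CACGTG, the core of the CLEAR element bound by TFEB and TFE3, was present in 2 of the 26 (7.69%), Aldh18a1 and Aars, and in 8.09% of all genes. The 2 patterns did not overlap in Aars. A match says only that these letters are in the window. Nars, Lars, Slc7a5, Slc1a5, Slc7a3, Eif4ebp1 and Aldh1l2 had no entry in the table.

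The WT library had 5572 barcodes and the KO library 5991, of which 4047 and 4837 cells were used, with a median of 20994 and 18510 UMIs per cell. There were 5 barcodes in both libraries, 1 of them among the cells used. Clusters were named from marker lists into 6 classes of the Six2 lineage and 6 outside it. Intercalated cells (27 WT and 10 KO) were too few to compare, which left 11 classes. The thresholds for naming were set after the data were seen. They left 386 WT and 395 KO cells unnamed, among them a shallow cluster led by proximal tubule genes with 3.9% of WT and 1.24% of KO cells. In the 11 classes compared every marker of the class was detected in both libraries, except Pvalb in KO distal tubule cells. The summed level of a class's own markers differed between libraries, most in distal tubule cells (3804 CPM, or UMIs per 1000000, in WT and 1201 in KO), proximal tubule cells (17935 and 11122) and podocytes (47630 and 31701). Flcn itself gave KO over WT ratios from 0.606 in proximal tubule cells to 1.74 in podocytes. Counts from the 3′ end do not check the deletion, as the labels do not say which exons are floxed.

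UMIs of a gene were added up within a class and divided by all nuclear-encoded UMIs of those cells, which gives CPM. Ratios are KO over WT CPM with an exact 95% interval that covers counting error only. With 1 library in each group there is no replicate check, no test was possible, and animal, dissociation and genotype cannot be told apart. A gene is called higher or lower where its ratio was at least 1.5-fold with an interval that leaves out 1, among genes with at least 50 UMIs over both libraries in the class. Levels are compared within a gene and not between genes. Fewer or shallower cells of a kind inside a class and less RNA per cell cannot be told apart in such sums.

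Counts of genes past this rule are given for each class beside the share of all genes. In proximal tubule cells 10 of the 27 genes that met the minimum were higher and none lower, where 9.53% of all 14380 genes were higher and 9.43% lower. In loop of Henle cells 6 of 28 were higher and 5 lower, against 9.85% and 13.8% of 12727 genes. In distal tubule cells 3 of 27 were higher and 2 lower, against 9.11% and 6.79%. In podocytes 4 of 22 were higher and none lower, against 7.93% and 5.19%. In nephron progenitors 2 of 29 were higher and 3 lower, against 4.29% and 4.64%. In early nephron cells, a cluster led by Lhx1, Plpp4 and Osr2, 1 of 29 was higher and none lower, against 3.71% and 3.59%. A cluster with Wnt4 among its leading genes was counted with the nephron progenitors.

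Outside the Six2 lineage few of the genes passed. Ureteric bud and collecting duct cells had 0 of 27 higher and 0 lower, where 3.14% and 2.25% of all genes were. Stroma had 1 of 29 higher and 2 lower, against 4% and 2.63%. Mural cells had 2 of 25 higher and 1 lower, against 4.66% and 4.18%. Endothelium had 1 of 29 higher and 1 lower, against 2.73% and 2.34%. Immune cells had 1 of 18 higher and 0 lower, against 4.67% and 5.73%. Counted as pairs of a gene and a class, 36 of 162 (22.2%) were past the rule in the Six2 lineage, where 14.5% of all such pairs were. Outside it 9 of 128 (7.03%) were, against 6.84% of all pairs.

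**Figure D1:**
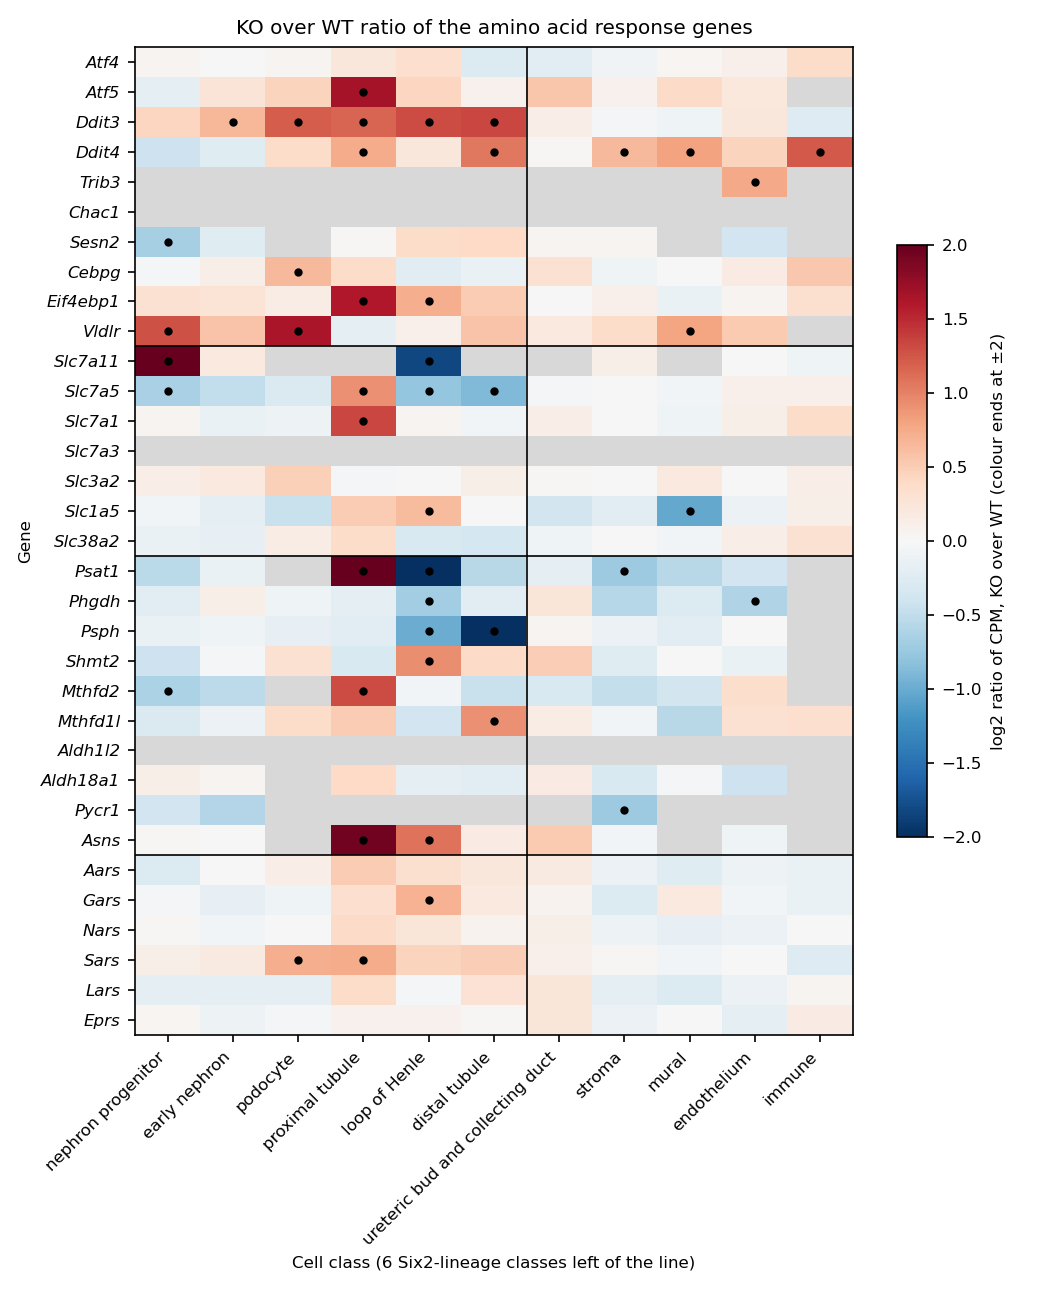
Log2 ratio of CPM, KO over WT, for the 33 genes (rows, in their 4 role groups) in 11 cell classes (columns); grey cells had fewer than 50 UMIs, black dots mark ratios past the 1.5-fold rule, and colours end at ±2. Red cells with dots gather in the proximal tubule column (10 of 27), while the loop of Henle column holds both colours (6 higher and 5 lower).

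The first group holds the regulators. Atf4 (ENSMUSG00000042406, chr15:80255184-80257541) was past the rule in none of the 11 classes, with ratios from 0.831 in distal tubule cells to 1.29 in immune cells. In proximal tubule cells Atf4 stood at 131 CPM in WT and 153 in KO, a ratio of 1.17 (1.11 to 1.23). In loop of Henle cells it stood at 103 and 130 CPM, a ratio of 1.26 (1.16 to 1.37). The mRNA of the factor therefore differed by less than 1.5-fold in the sums of every class, and its protein was not measured. Within loop of Henle sub-cluster 16, described below, Atf4 stood at 98.6 CPM in WT and 151.2 in KO. That ratio, 1.534 (1.305 to 1.795), was past 1.5-fold. Within the proximal tubule sub-clusters the ratio ran from 0.971 in 27 to 1.41 in 28.

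Ddit3 (ENSMUSG00000025408, chr10:127290774-127296288), which encodes CHOP, a transcription factor of prolonged stress, was higher in 5 of the 6 Six2-lineage classes. It stood at 34.7 CPM in WT and 77.7 in KO proximal tubule cells (ratio 2.24, 2.06 to 2.44) and at 14.9 and 36.7 CPM in loop of Henle cells (2.47, 2.03 to 3.03). It was 16.1 and 40.5 CPM in distal tubule cells (2.52, 1.86 to 3.44). In the sums of each of these tubule segments the KO level was more than 2-fold the WT level. Within loop of Henle sub-cluster 16, described below, Ddit3 stood at 15.2 CPM in WT and 22.5 in KO. The interval of that ratio (1.48, 0.952 to 2.23) held 1. Podocytes had 31.9 CPM in WT and 73.6 in KO (2.31, 1.89 to 2.83). Early nephron cells had 14.1 and 22.4 CPM (1.59, 1.30 to 1.93). Nephron progenitors, the youngest of these classes, had 23.3 and 31.4 CPM, a ratio of 1.35 (1.18 to 1.54) that is within 1.5-fold. In the 5 classes outside the lineage the ratio lay between 0.840 in immune cells and 1.16 in endothelium, and every one of those intervals held 1. A second gene row with the symbol Ddit3 had 0 UMIs in both libraries.

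Ddit4 encodes REDD1, an inhibitor of mTORC1 that also responds to hypoxia and glucocorticoids. It was higher in distal tubule cells (34.7 and 72.3 CPM, ratio 2.09, 1.69 to 2.59) and in proximal tubule cells (8.63 and 14.4 CPM, 1.67, 1.39 to 2.01). It was also higher in 3 classes outside the lineage. Immune cells had 31.5 CPM in WT and 74.6 in KO (2.37, 1.57 to 3.68), mural cells 12.9 and 22.8 (1.76, 1.16 to 2.75) and stroma 12.3 and 19.4 (1.57, 1.34 to 1.85). Ddit4 was thus past the rule on both sides of the lineage border. In nephron progenitors it stood at 9.79 and 7.29 CPM, a ratio of 0.744 (0.585 to 0.944). After each cell was thinned to 3000 UMIs the ratio turned to 0.796 in proximal and 0.590 in distal tubule cells, and with no doublet removal it turned to 0.808 in mural cells.

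**Figure D2:**
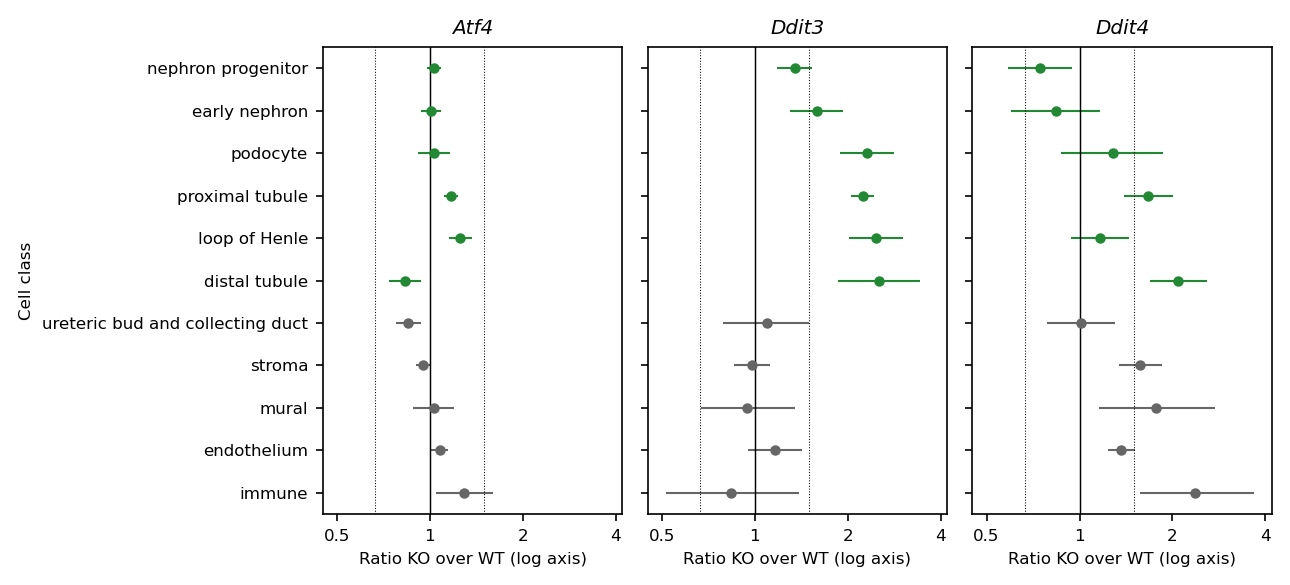
Ratio of CPM, KO over WT (log axis), of Atf4, Ddit3 and Ddit4 in 11 cell classes; green points are Six2-lineage classes, grey points classes outside, bars are 95% counting intervals, the solid line is 1 and dotted lines are 1.5-fold. Ddit3 lies at 1.35 to 2.52 in the green classes and at 0.840 to 1.16 in the grey ones, while Ddit4 is past 1.5 in both kinds and Atf4 in neither.

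In proximal tubule cells (485 WT and 405 KO) the genes higher in KO came from each of the 4 role groups, though no transporter or synthetase kept its call without the sub-clusters held by 1 library (Slc7a1 1.48, Slc7a5 0.565, Sars 1.43). Asns (ENSMUSG00000029752, chr6:7675169-7693254), which makes asparagine from aspartate, had 180 WT and 637 KO UMIs, or 8.05 and 30.7 CPM (ratio 3.81, 3.23 to 4.52). Psat1 (ENSMUSG00000024640, chr19:15904678-15947337), the aminotransferase of serine synthesis, had 76 and 314 UMIs, or 3.40 and 15.1 CPM (4.45, 3.45 to 5.80). The WT level of Psat1 was its lowest in the 11 classes, while that of Asns lay within its range over classes, 2.04 CPM in podocytes to 11.7 in distal tubule cells. Mthfd2, of mitochondrial folate metabolism, had 5.27 and 13.0 CPM (2.46, 1.98 to 3.09).

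The other enzymes of serine synthesis did not follow Psat1 there. Phgdh, which catalyses the entry step and has its highest WT level in proximal tubule cells, stood at 471 CPM in WT and 410 in KO (ratio 0.870, 0.845 to 0.895). Psph, which removes the phosphate in the last step, stood at 54.5 and 46.5 CPM (0.854, 0.784 to 0.929). Shmt2, which turns serine into glycine in mitochondria, stood at 49.0 and 39.6 CPM (0.808, 0.737 to 0.885). None of these was past the rule, and all 3 ratios were below 1.

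Among regulators in proximal tubule cells, Atf5 (ENSMUSG00000038539), a factor under the same translational control as Atf4, had 8.63 CPM in WT and 27.6 in KO (3.20, 2.71 to 3.78). Eif4ebp1 (ENSMUSG00000031490), whose protein represses cap-dependent translation until mTORC1 phosphorylates it, had 30.6 and 93.0 CPM (3.04, 2.78 to 3.32). Sesn2, a leucine sensor upstream of mTORC1, stood at 18.3 and 18.7 CPM (1.02, 0.889 to 1.18). Vldlr, a lipoprotein receptor, stood at 157 and 137 CPM (0.871, 0.829 to 0.916). The group as a whole had 4 of its 8 measured genes higher.

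The transporters higher in proximal tubule cells were Slc7a1, the cationic amino acid carrier CAT1, with 12.0 and 30.5 CPM (2.54, 2.2 to 2.94), and Slc7a5, the leucine carrier LAT1. Slc7a5 had 48 WT and 84 KO UMIs, or 2.15 and 4.04 CPM (1.89, 1.31 to 2.75). Its partner chain Slc3a2 stood at 213 and 209 CPM (0.982, 0.942 to 1.02). Slc1a5, a glutamine carrier, had a ratio of 1.42 (1.20 to 1.69) and Slc38a2, another, of 1.28 (1.23 to 1.35). Of the tRNA synthetases Sars, which charges serine, was higher, with 128 and 214 CPM (1.67, 1.59 to 1.75). The other 5 had ratios from 1.06 for Eprs to 1.42 for Aars, so all 6 synthetases lay above 1.

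Of the 33 genes, 6 were too low in proximal tubule cells for the rule. Chac1, which breaks down glutathione, had 2 WT and 35 KO UMIs (ratio 18.9, 4.84 to 162). Trib3, a pseudokinase that feeds back on ATF4, had 9 and 26 UMIs (3.11, 1.41 to 7.55). Aldh1l2, a mitochondrial folate enzyme, had 5 and 31 (6.68, 2.57 to 22.0). Slc7a3, another cationic carrier, had 7 and 32 (4.92, 2.14 to 13.2). These 4 had more UMIs in KO, with intervals above 1. Slc7a11, the cystine carrier xCT, had 14 and 22 UMIs, and Pycr1, the last enzyme of proline synthesis, had 18 and 19, and both intervals held 1. The median log2 ratio of the 27 genes that met the minimum was 0.40, where that of all genes was 0.00. It describes these genes and is no test.

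**Figure D3:**
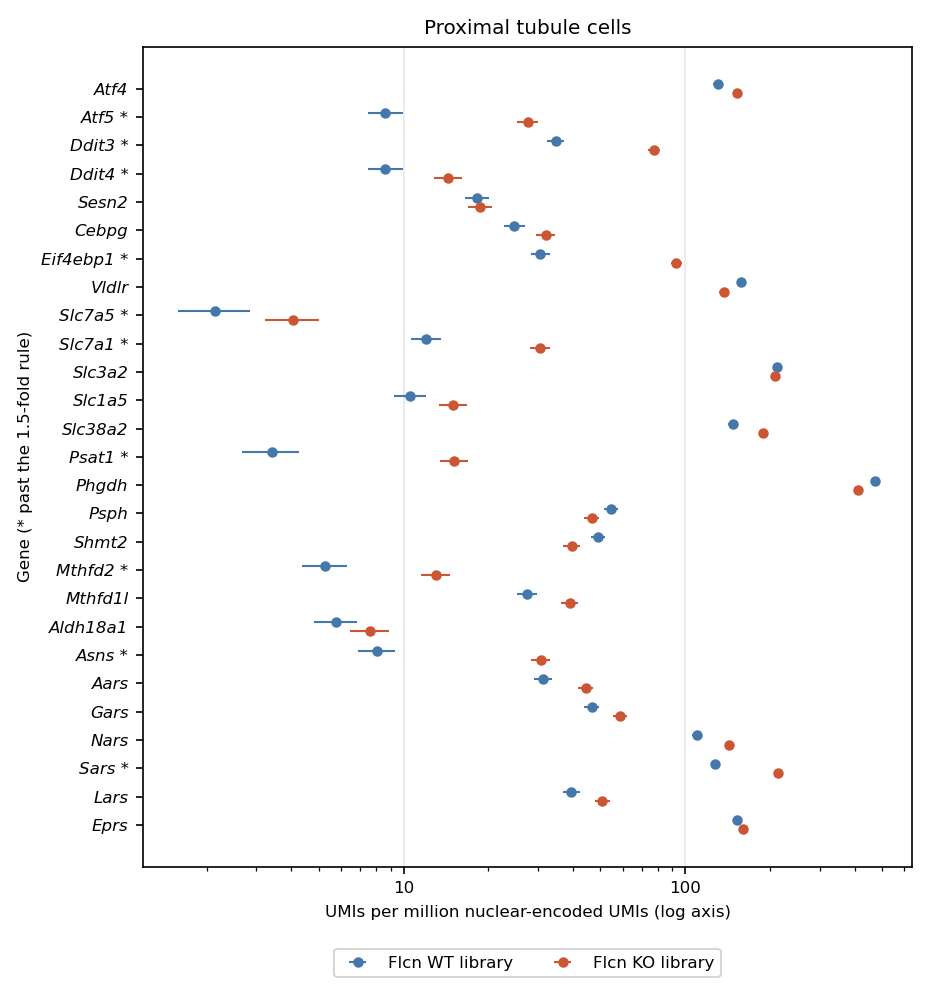
CPM of the 27 genes with at least 50 UMIs in proximal tubule cells (log axis) in the WT (blue) and KO (orange) library, with 95% counting intervals; stars mark genes past the 1.5-fold rule. The widest gaps are those of Psat1 (3.40 and 15.1 CPM) and Asns (8.05 and 30.7 CPM), and the blue and orange points of Slc3a2 nearly coincide.

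The 2 libraries filled the proximal tubule class with different cells, and the values above sum over them. At a finer resolution 4 sub-clusters held most of it. Sub-cluster 17, led by G6pc and Slc5a12, had 189 WT and 20 KO cells. Sub-cluster 24, led by Serpina6 and Kap, had 152 and 63. Sub-cluster 27, led by Grid1 and Galntl6, had 123 and 100. Sub-cluster 28, led by Kcnip4 and Havcr1, had 21 and 222. None of the leading genes of sub-cluster 27 was a proximal tubule marker. Mki67 stood there at 60.8 CPM in WT and 25.5 in KO, and at 4.8 or less in the others. At resolution 0.5 a cluster led by Grid1 and Cdh6 was named early nephron, so sub-cluster 27 may hold less mature cells. Of all genes in the class 9.53% were higher and 9.43% lower. Tubule injury genes moved with the KO library in the class as a whole, with 11 of 15 measured higher and a summed level of 2116 CPM in WT and 3172 in KO. Havcr1, the injury marker KIM-1, stood at 4.87 and 110 CPM. Within sub-clusters the injury sum was lower in KO in 17 (2828 and 2558 CPM) and 27 (1258 and 1176). It was higher in KO in 24 (1759 and 2279) and 28 (3711 and 4255). Such sums lean on abundant genes. In the whole class the highest injury gene alone gave 1206 CPM of the WT sum and 1376 of the KO sum. The median log2 ratio over the injury genes there was 1.81, and single injury genes are not given by sub-cluster. Of 15 dissociation response genes in the class 2 were higher, Btg2 (1.57, 1.51 to 1.63) and Hspa1a (1.67, 1.30 to 2.16), and none lower. The list's median log2 ratio was 0.30. Cycling genes were lower in KO, with Mki67 at 18.6 and 7.17 CPM and Top2a at 18.4 and 5.39.

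Within sub-clusters the genes behaved differently. Ddit3 had more CPM in KO in all 4, with ratios of 1.69 in sub-cluster 17, 3.07 in 24, 2.43 in 27 and 2.72 in 28. Asns stood at 5.52 CPM in WT and 31.5 in KO in sub-cluster 24 (ratio 5.71) and at 13.4 and 42.0 in 28. In sub-cluster 27 it stood at 4.45 and 5.06, and in 17 at 12.0 and 9.94. Asns was thus apart between libraries in 24 and 28 only, where intervals of the levels do not meet. Atf5 showed the same, with 9.19 and 40.9 CPM in sub-cluster 24 and 7.67 and 32.5 in 28, but 8.11 and 9.27 in 27. Psat1 stood at 4.93 and 21.1 CPM in sub-cluster 17 and at 7.67 and 22.1 in 28. Phgdh went the other way in sub-cluster 28, from 682 CPM in WT to 336 in KO. The part of injury, dissociation, cycling or the mix of sub-clusters in these values was not tested. Without sub-clusters 17 and 28, each held at 90% or more by 1 library, 5 genes were higher in place of 10. They were Atf5 (2.57), Ddit3 (2.66), Eif4ebp1 (1.76), Psat1 (2.08) and Asns (3.19), while Ddit4 stood at 1.06 and Mthfd2 at 1.29. The share of all genes past the rule without sub-clusters 17 and 28 was not computed. Mthfd2 turned to 0.512 after thinning.

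**Figure D4:**
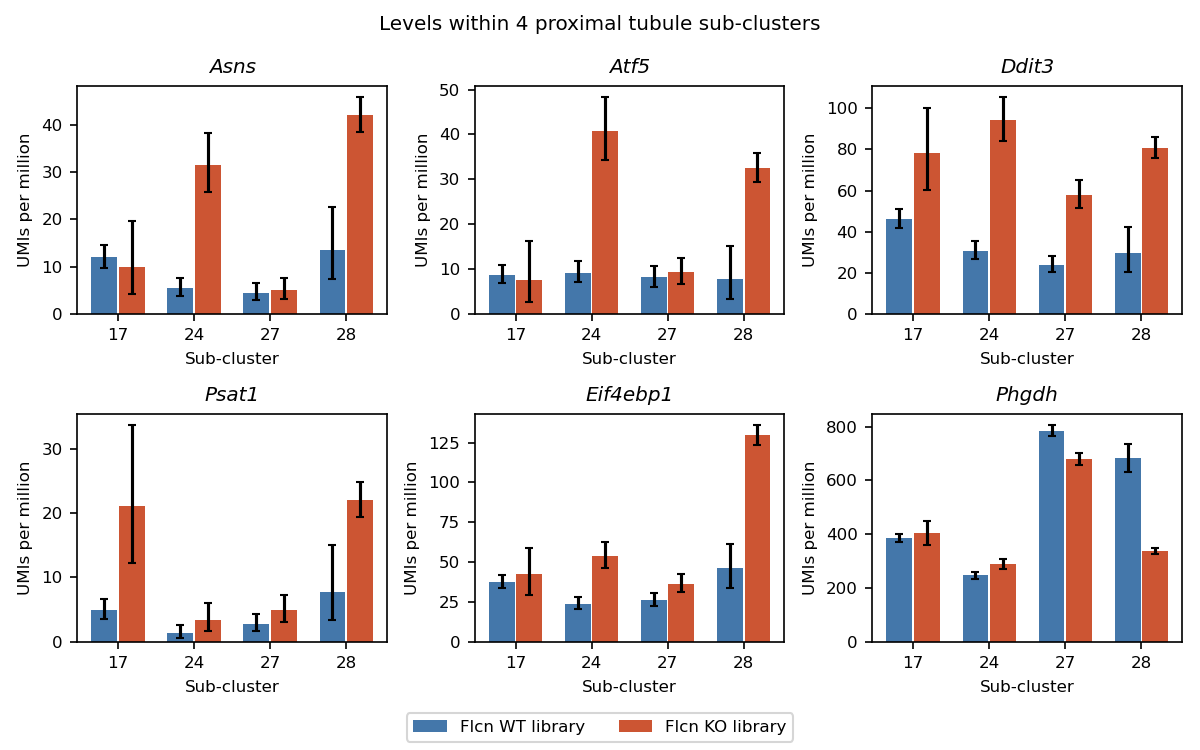
Bars show the CPM of Asns, Atf5, Ddit3, Psat1, Eif4ebp1 and Phgdh in proximal tubule sub-clusters 17, 24, 27 and 28 in the WT (blue) and KO (orange) library, with 95% counting intervals. Ddit3 has the taller KO bar in all 4 sub-clusters, Asns and Atf5 have KO bars clear of the WT intervals in 24 and 28, and Phgdh has the shorter KO bar in 28 (682 and 336 CPM).

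Counted by cell, 5 of the genes higher in proximal tubule cells were also found in a larger share of KO cells. After thinning to 3000 UMIs, Asns had a UMI in 2.50% of WT cells (exact 95% interval 1.30 to 4.32%). In KO cells it was 9.43% (6.76 to 12.7%), and unthinned the shares were 23.3% and 54.6%. Psat1 was found in 0.832% and 6.2% of thinned cells, Atf5 in 2.29% and 8.93%. Eif4ebp1 was found in 7.90% and 25.3% and Ddit3 in 9.15% and 21.1%. Mthfd2 was not, with 1.46% and 0.744% after thinning. In endothelium, read the same way, Asns was found in 1.02% of WT and 2.62% of KO cells. The WT proximal tubule share of Asns was thus at the level of KO endothelium, and the median depth was 41880 UMIs in WT and 48002 in KO proximal tubule cells, against 21703 and 25933 in endothelium.

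In loop of Henle cells (148 WT and 202 KO) the serine synthesis enzymes were lower in KO. Psat1 had 292 WT and 68 KO UMIs, or 33.4 and 5.86 CPM (ratio 0.176, 0.133 to 0.229). Psph stood at 24.8 and 12.5 CPM (0.504, 0.405 to 0.624) and Phgdh at 52.2 and 32.1 CPM (0.615, 0.535 to 0.707). All 3 enzymes of the pathway from glycolysis to serine were thus past the rule in the same direction in the class as a whole. Slc7a11 had 78 WT and 29 KO UMIs, or 8.91 and 2.50 CPM (0.280, 0.176 to 0.434). Slc7a5 stood at 14.4 and 8.44 CPM (0.586, 0.446 to 0.769).

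Higher in the KO library of that class, beside Ddit3, were Asns, Shmt2, Eif4ebp1, Gars and Slc1a5. Asns had 59 WT and 166 KO UMIs, or 6.74 and 14.3 CPM (2.12, 1.57 to 2.91). Shmt2 stood at 17.9 and 34.4 CPM (1.92, 1.59 to 2.32), opposite in direction to Psat1, Psph and Phgdh. Eif4ebp1 stood at 72.0 and 119 CPM (1.66, 1.51 to 1.83). Gars, which charges glycine, stood at 57.1 and 92.7 CPM (1.62, 1.46 to 1.81) and Slc1a5 at 85.6 and 133 CPM (1.55, 1.42 to 1.70). The other synthetases lay between 0.990 for Lars and 1.35 for Sars.

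The loop of Henle class was also split by library. Sub-cluster 16, led by Slc12a1 and Pappa2, held 143 WT and 26 KO cells, and sub-cluster 36, led by Umod and Ptger3, held 1 WT and 174 KO cells of the class. Within sub-cluster 16 the ratio was 0.379 for Psat1 and 0.494 for Psph, while it was 1.02 for Asns, 0.831 for Gars and 0.955 for Eif4ebp1. It was 0.868 for Slc7a11 and 0.653 for Phgdh. Without sub-cluster 36 none of the genes was higher, with Ddit3 at 1.45, Shmt2 at 1.09 and Asns at 0.949. Of the 5 lower genes, Psat1 (0.364) and Psph (0.461) kept their call there, while Phgdh (0.774), Slc7a11 (0.798) and Slc7a5 (0.593) lost it. A further gene, not called in the whole class, was lower there. Within sub-cluster 16 Mthfd2 had 116 WT and 7 KO UMIs (0.388, 0.153 to 0.825). The share of all genes past the rule without sub-cluster 36 was not computed. Cycling genes moved with the class as well, with Mki67 at 124 CPM in WT and 77.4 in KO and Top2a at 110 and 49.9. Their part in the serine genes was not tested. Psat1 was found in 8.16% of WT and 0.995% of KO loop of Henle cells after thinning, and unthinned in 43.2% and 21.3%.

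**Figure D5:**
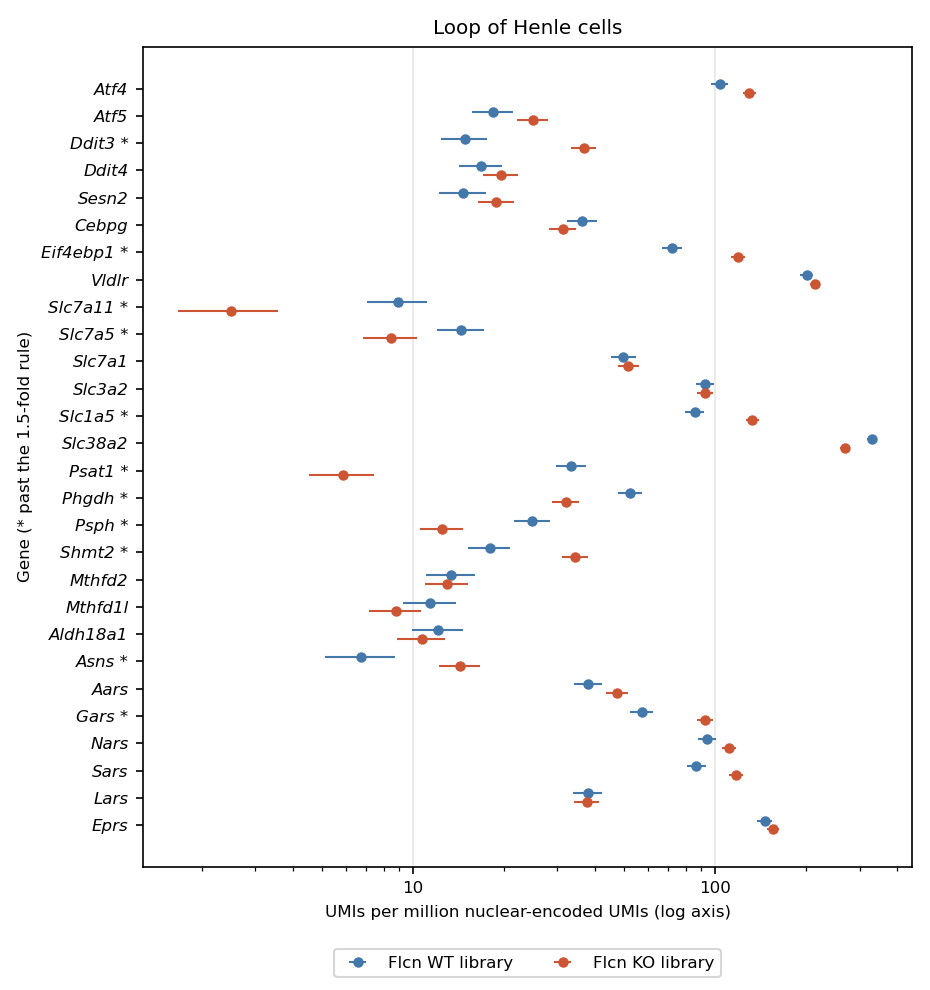
CPM of the 28 genes with at least 50 UMIs in loop of Henle cells (log axis) in the WT (blue) and KO (orange) library, with 95% counting intervals; stars mark genes past the 1.5-fold rule. Psat1 (33.4 and 5.86 CPM) and Slc7a11 (8.91 and 2.50 CPM) have their orange points far to the left, and Ddit3 (14.9 and 36.7 CPM) far to the right.

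The distal tubule class (118 WT and 68 KO cells) had Psph at 79.9 CPM in WT, its highest WT level in any class, and at 15.2 in KO (ratio 0.190, 0.136 to 0.260). Slc7a5 stood at 25.7 and 13.9 CPM (0.539, 0.367 to 0.777). Mthfd1l, of mitochondrial folate metabolism, had 42 WT and 54 KO UMIs, or 9.65 and 18.2 CPM (1.89, 1.24 to 2.90). After thinning Mthfd1l had no KO UMI and Slc7a5 stood at 0.867. This class was mixed by its markers, some of a kind outside the Six2 lineage. Distal markers summed to 3804 CPM in WT and 1201 in KO, ureteric bud and collecting duct markers to 1593 and 1011, and intercalated markers to 1123 and 667. The part of this mix in the ratios was not tested. Immune markers summed to 30.3 CPM in WT, with 6 of 12 detected and Tyrobp, C1qa and Lyz2 at 0, and to 236 in KO, with 11 of 12 detected. Their part in the higher Ddit4 of this class, a gene also higher in immune cells, was not tested.

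In podocytes (194 WT and 119 KO cells) Vldlr had 37 WT and 70 KO UMIs, or 6.85 and 21.4 CPM (ratio 3.12, 2.07 to 4.78). Sars stood at 52.6 and 86.8 CPM (1.65, 1.39 to 1.95). Cebpg, a partner with which ATF4 forms dimers, stood at 29.8 and 46.7 CPM (1.57, 1.25 to 1.97). After thinning none of the 4 genes higher in podocytes kept its call, with ratios of 1.17 for Vldlr, 1.28 for Cebpg, 1.39 for Sars and 1.88 for Ddit3, and Cebpg lost it at 3 other settings too. Asns had only 11 WT and 19 KO UMIs (2.85, 1.29 to 6.63) and did not meet the minimum. Vldlr was also higher in nephron progenitors, with 4.79 and 11.6 CPM (2.41, 1.87 to 3.14), and in mural cells, with 9.58 and 16.8 CPM (1.75, 1.07 to 2.97).

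In nephron progenitors (656 WT and 602 KO cells) Slc7a5 stood at 41.3 CPM in WT, its highest WT level in any class, and at 26.3 in KO (0.636, 0.563 to 0.717). Mthfd2 stood at 20.3 and 13.0 CPM (0.642, 0.540 to 0.763) and Sesn2 at 6.03 and 3.77 CPM (0.626, 0.450 to 0.863). These 3 lower genes kept ratios below 1 at each setting tried, though each lost its call in at least 1. Slc7a11 had 11 WT and 40 KO UMIs (4.51, 2.27 to 9.75), but 11 cells of each library held them, 1.68% of WT and 1.83% of KO cells. Immune markers summed to 4.02 CPM in WT and 31.0 in KO progenitors, and Slc7a11 stood at 623 CPM in WT immune cells. The part of immune RNA in that ratio was not tested, and the ratio turned to 0.753 at resolution 0.5 and 0.547 after thinning.

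Outside the lineage the genes past the rule beside Ddit4 and Vldlr were few. In stroma (1069 WT and 1816 KO cells) Psat1 stood at 17.3 and 10.4 CPM (0.602, 0.512 to 0.709) and Pycr1 at 7.24 and 4.40 CPM (0.608, 0.471 to 0.784). In mural cells Slc1a5 stood at 25.4 and 12.5 CPM (0.490, 0.327 to 0.731). In endothelium Trib3 had 24 WT and 65 KO UMIs (1.70, 1.05 to 2.84) and Phgdh stood at 10.7 and 7.07 CPM (0.661, 0.508 to 0.860). Trib3 met the minimum in no other class, and its ratio turned to 0.916 when averaged over cells. The call was lost for Trib3 at 3 of 10 settings and for Phgdh at 4. In stroma none of the 9 measured enzymes of serine, folate, proline and asparagine synthesis had a log2 ratio above 0, and their median was -0.31. The median of all genes there was 0.00. Stroma was not alone in this. In mural cells 0 of 7 measured lay above 0 (median -0.27), and in nephron progenitors 2 of 9 did (median -0.29).

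Across all classes Asns was higher in 2 and Psat1 in 1, both in tubule segments, and Psat1 was lower in 2. A set of 6 genes (Slc3a2, Slc38a2, Aars, Nars, Lars and Eprs) were measured in all 11 classes and, like Atf4, were past the rule in none. Their ratios ran from 0.785 for Slc38a2 in distal tubule cells to 1.42 for Aars in proximal tubule cells. Chac1, Slc7a3 and Aldh1l2 met the minimum of 50 UMIs in no class.

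Other genes of the pathway were read from further lists. Of 15 further amino acid response targets, 14 were measured in proximal tubule cells, and 8 were higher and 1 lower, where 9.53% and 9.43% of all genes were. Nupr1, a stress-induced chromatin protein, had 39 WT and 2174 KO UMIs (1.74 and 105 CPM, ratio 60.0, 43.8 to 84.7). Gdf15, a stress hormone, stood at 24.1 and 69.3 CPM (2.88, 2.60 to 3.18) and Atf3 at 52.5 and 137 CPM (2.61, 2.44 to 2.79). In loop of Henle cells 7 of 14 were higher and 6 lower, against 9.85% and 13.8%. There Nupr1 was lower, with 12.6 and 1.12 CPM (0.0891, 0.0460 to 0.159), as was Cth, of cysteine synthesis (0.436, 0.379 to 0.501), while the autophagy receptor Sqstm1 was higher (2.33, 2.19 to 2.47). Nupr1 thus lay on opposite sides in the sums of these 2 classes, as Psat1 did. Nupr1 was also lower in distal tubule cells (0.279, 0.149 to 0.489) and in endothelium (0.212, 0.128 to 0.342). Atf3 was higher in distal tubule cells (1.82) and stroma (1.54) and lower in nephron progenitors (0.606). Gdf15 was lower in nephron progenitors (0.450) and immune cells (0.291). Values of these lists, here and below, sum over all sub-clusters of a class. They were not recomputed without the sub-clusters held by 1 library.

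Lists beside the pathway were read in the same way. Of all genes, 9.53% were higher and 9.43% lower in proximal tubule cells, and 9.85% and 13.8% in loop of Henle cells. In distal tubule cells these shares were 9.11% and 6.79%, and in podocytes 7.93% and 5.19%. None of 10 eIF2 kinases, phosphatases and regulators was past the rule in proximal tubule cells, and in loop of Henle cells 1 was, Eif2ak4, which encodes GCN2, with 53.6 and 87.0 CPM (1.62, 1.45 to 1.82). Of 15 endoplasmic reticulum chaperones none was past the rule in proximal tubule cells, where their median log2 ratio was -0.25. In loop of Henle and distal tubule cells 1 was, Herpud1, with ratios of 4.59 (4.27 to 4.95) and 3.77 (3.29 to 4.34). Of the eIF2 list 1 gene was higher in distal tubule cells, Eif2ak3, which encodes PERK (1.98, 1.61 to 2.43), and 1 in podocytes, Impact, whose protein restrains GCN2 (1.88, 1.59 to 2.23). None of 13 other cytosolic tRNA synthetases was past the rule in proximal tubule or loop of Henle cells, and 1 was higher in distal tubule cells, Wars, which charges tryptophan (1.93, 1.54 to 2.42). Of 10 kidney tubule amino acid transporters, 2 were lower in proximal tubule cells and none higher. They were Slc3a1 (344 and 209 CPM, 0.608, 0.585 to 0.631) and Slc6a19 (14.4 and 8.47 CPM, 0.591, 0.489 to 0.712). In loop of Henle cells 4 of 8 measured were higher and none lower, Slc1a1, a glutamate carrier, with 14.4 and 46.1 CPM (3.20, 2.63 to 3.92).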

How the data were processed

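Cells of 2 newborn mouse kidney libraries were profiled on a droplet platform with 3′ chemistry, per the labels' protocols. The deposited matrices hold raw UMI counts per gene and barcode, 1 matrix per library. The authors used bcl2fastq 2.20.0, Cell Ranger (7.0.0 for WT and 7.1.0 for KO, per the file headers) and STAR 2.7.2a with GRCm38, per the submitters' processing notes. Handling of introns is not given in the sources used here.

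Barcodes with at least 1000 UMIs, 500 genes and at most 20% mitochondrial UMIs were kept (4187 WT, 5040 KO). Scrublet's own threshold called 3 and 2 doublets, so the highest scores were removed at 0.8% per 1000 cells (140 and 203). Clustering used scanpy 1.11.5 with 2000 variable genes, which held 1 member (Slc7a11), 40 components, 20 neighbours and Leiden resolution 1. A name needed a marker score of 0.35 and a lead of 0.05, and a cluster with more leading genes of another list stayed unnamed. The calculation of ratio intervals was tested on simulated data.

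The members and lists were chosen with earlier results of these data known. Named genes are members past the rule in at least 2 classes, or with the 3 interval bounds furthest from 1 in a class, with the rest as ranges. Beyond that rule, other members were named after their values were seen. Alternatives varied filters, doublets, clustering, scaling (TMM in edgeR 4.0.16, median of ratios in DESeq2 1.42.0), averaging and thinning. Sub-cluster levels were added after the data were seen.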

Additional observations from a re-analysis of the deposited data

Results flagged for a closer look

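Some genes were past the 1.5-fold rule in opposite directions in different cell classes, and in none of these cases was the difference between classes tested. Slc7a11 had a KO over WT ratio of 4.51 in nephron progenitors and 0.280 in loop of Henle cells. Slc7a5 had a ratio of 1.89 in proximal tubule cells, but 0.539 in distal tubule cells, 0.586 in loop of Henle cells and 0.636 in nephron progenitors. Slc1a5 had 1.55 in loop of Henle cells and 0.490 in mural cells. Psat1 had 4.45 in proximal tubule cells, 0.176 in loop of Henle cells and 0.602 in stroma. Mthfd2 had 2.46 in proximal tubule cells and 0.642 in nephron progenitors.

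Most of these oppositions depended on the setting. Slc7a11 turned to 0.753 or 0.547 in progenitors, and stood at 0.798 in loop of Henle cells without sub-cluster 36. In proximal tubule cells Slc7a5 turned to 0.565 and Mthfd2 to 0.512, and in loop of Henle cells Slc1a5 turned to 0.957. Psat1 kept its call at each of 10 settings in proximal tubule cells, loop of Henle cells and stroma. In stroma, leaving out sub-clusters held by 1 library removed no cells, so that setting could not change the call. Within proximal tubule sub-clusters 24 and 27, however, the interval of the Psat1 ratio held 1.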

How the results depend on the processing

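No paired analysis was possible because each group has 1 library. Of 45 called pairs of a gene and a class, 13 kept their call at every setting that gave a value and 32 lost it in at least 1. Not every setting could change every call. Leaving out sub-clusters held by 1 library removed cells of proximal tubule and loop of Henle only, and averaging over cells gave no interval. The share of all genes past the rule was computed at the main setting only, so counts at other settings have none beside them. Leaving out sub-clusters held by 1 library gave a median log2 ratio of 0.18 and 5 higher genes in proximal tubule, 0 higher and 3 lower in loop of Henle, and 15 higher pairs in the Six2 lineage. It turned Slc7a5 to 0.565 in proximal tubule, and Eif4ebp1 (0.938), Slc1a5 (0.957), Asns (0.949) and Gars (0.885) in loop of Henle.

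Thinning gave medians of 0.40 in loop of Henle and -0.25 in mural cells, 1 lower gene in loop of Henle and 6 lower pairs in the Six2 lineage. It turned Slc7a11 in progenitors to 0.547, Ddit4 (0.796), Slc7a5 (0.955) and Mthfd2 (0.512) in proximal tubule, Ddit4 (0.590) and Mthfd1l (0, no KO UMI) in distal tubule and Vldlr (0.759) in mural cells. Thinned sums hold few UMIs. Resolution 0.5 turned Slc7a11 in progenitors to 0.753, keeping all doublet scores turned Ddit4 in mural cells to 0.808, and averaging over cells turned Trib3 in endothelium to 0.916.

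Outside the lineage, higher pairs were 2 with no doublet removal, 8 with averaging over cells, 1 with at least 200 UMIs and 8 with at least 1 UMI, and lower pairs were 7 with averaging. The causes were not tested. The distal tubule class could not be formed at a 10% mitochondrial limit, at resolution 2 or with variable genes chosen without the lists. Other scalings shifted log2 ratios by at most 0.05.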
